A study of Rattus norvegicus with 24 samples.

Results

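Keratins and cornified envelope genes were described across 24 rat lung samples. The members are all rows of the expression table whose name starts with Krt or Sprr followed by a digit, together with Lor, Ivl, Dsg3, Dsc3 and Trp63, which gave 60 of 30667 rows. They comprise 52 keratin rows, 3 small proline-rich protein genes (Sprr1a, Sprr1b and Sprr3), the envelope proteins loricrin (Lor) and involucrin (Ivl), the desmosomal cadherins Dsg3 and Dsc3, and the transcription factor p63 (Trp63). The samples came from a rat model of lung cancer set up with smoky coal, and all 24 carry the same tissue label, lung tissue, and the same protocol label, smoky coal. Each title joins 1 of 4 letters (A, B, C and G) to 1 of the numbers 1 to 6. A letter has 6 samples, and a number occurs once under each letter. The labels give no strain, age, sex, dose, time or control for any letter, and do not say what the letters or numbers stand for, so a difference is only one between letters or between numbers. They also do not say that the 24 samples are separate animals, and p-values therefore measure only the spread between these samples.

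Keratins are the intermediate filament proteins of epithelial cells, and each filament is built from a type I and a type II partner. Simple epithelia, including the alveolar and airway lining of the lung, use Krt8 with Krt18 and Krt7 with Krt19, whereas the basal cells of the airway and of stratified epithelia use Krt5 with Krt14 or Krt15 under the control of p63. Cells that leave the basal layer switch to other pairs, Krt4 with Krt13 in the wet mucosa of mouth and oesophagus and Krt1 with Krt10 in the epidermis, and at the surface loricrin, involucrin and the small proline-rich proteins are cross-linked into the cornified envelope. Normal lung parenchyma holds few such cells, and squamous keratins in the lung are known from injury and from squamous tumours.

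Values are normalized read counts per gene, called counts here. They summed to between 61717516 and 66007148 per sample, and the depth before normalization is unknown. Alveolar type 2 markers, such as Sftpc, and alveolar type 1 markers were present in every sample, with no marker of either list at 0 in A4. A4 stood apart in the squamous members, and A2 in Krt18, so values without these samples are given beside several results. The row names have the mouse form, and the submitters' processing notes name the mouse build GRCm38 for these rat samples. Of the 60 names, 55 match a rat RefSeq symbol and 2 a synonym, and 3 (Krt74, Krt6b and Krt8-ps) match none. How reads shared by near-identical genes were counted is not given in the sources used here, so Krt6a and Krt6b, Krt14, Krt16, Krt17 and Krt42, Krt33a and Krt33b, and the hair keratins Krt81, Krt83, Krt86 and Krt87 are uncertain as single genes. The row of the pseudogene Krt8-ps held between 15.9% and 20.4% of the Krt8 count in each sample, with a median of 17.48%, and is uncertain likewise. In whole tissue, fewer cells of a type and less RNA per cell cannot be told apart.

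Simple keratins such as Krt8 and basal keratins such as Krt5 were found in all 24 samples, whereas 5 squamous members, Krt13, Krt4, Lor, Sprr3 and Sprr1a, were far higher in A4 than in any other sample. No member passed a test between the letters, where the F test called 0.00652% of all genes. The test between sample numbers called 13 of 60, against 31.5% of all genes. Of the 60 members, 38 had a mean of at least 10 counts over the 24 samples and 22 had a mean under 10. Of the 60, 19 were listed at 0 in at least 1 sample. The heat map of members by sample shows the A4 column apart in the basal, mucosal and envelope rows.

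**Figure D1:**
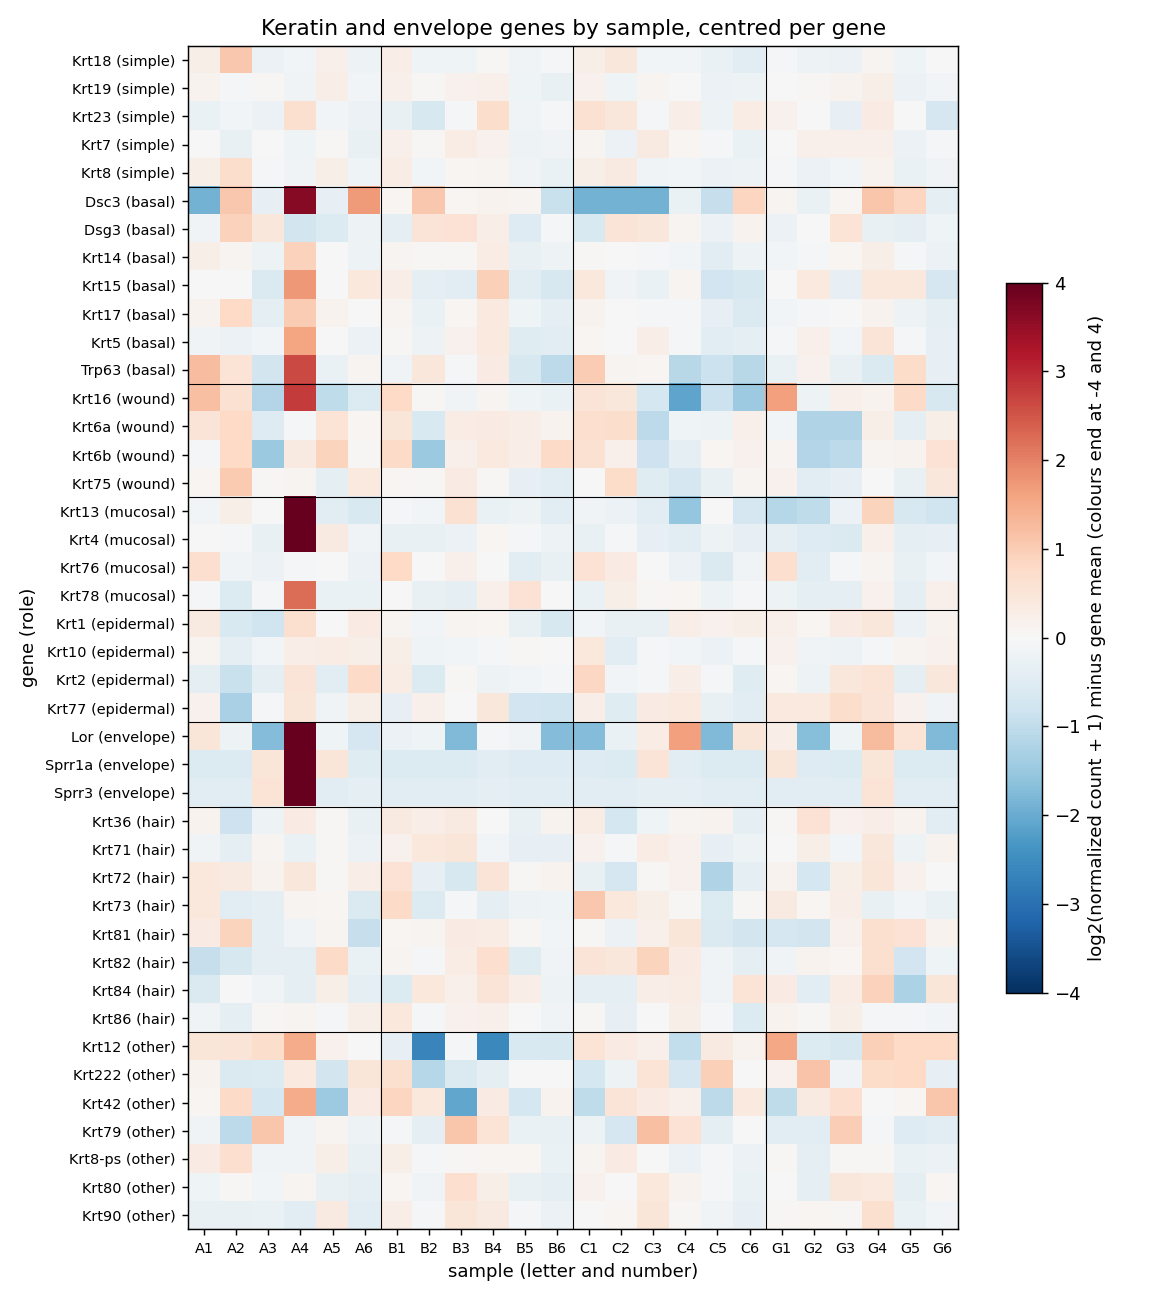
Heat map of the members with at least 10 counts in A4 or on average, with samples in columns and genes in rows grouped by role. Colour gives log2(count + 1) relative to that gene's average in the table, ending at -4 and 4, and A4 is the highest sample for all basal rows but Dsg3 and for the envelope rows Lor, Sprr1a and Sprr3.

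Of the 6 simple keratins, Krt7, Krt8, Krt18, Krt19 and Krt23 had at least 188 counts in every sample. The F test between the letters called 0 of the 6, against 0.00652% of all genes. Krt7, the type II partner typical of alveolar and airway epithelium, lay between 14113 and 18114 counts in A (median 16429.5), between 15154 and 21333 in B (19088), between 14492 and 22399 in C (17507) and between 14999 and 20308 in G (19009.9). Krt19, its type I partner, averaged 17709 ± 2079 over letter A, 17888 ± 2484 over B, 16895 ± 1975 over C and 17649.6 ± 2054 over G (SD, n = 6). The ranges of all 4 letters overlap for Krt7 and for Krt19.

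Krt8, the type II keratin of simple epithelia, lay between 8879.6 and 16214 counts in A (median 10690.5), between 8410.1 and 12431 in B (9904), between 8496 and 12908 in C (9241) and between 8420.4 and 10949 in G (9199). Its partner Krt18 lay between 4019 and 10089 in A (4959.95), between 4242 and 5671 in B (4455), between 3583 and 6582 in C (4429.8) and between 4088 and 5106 in G (4335). A2 was the highest sample for both genes and C2 came next, and the other samples of the letters overlap. Krt18 in A2 was 10089 counts, against at most 5588 in the other 5 A samples, while A2 was among the lower samples for Krt7 (14199) and had 16462 counts of Krt19.

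Other values of A2 and C2 were also high or low, and some were shared by other samples. The 5 neutrophil markers, such as S100a8, summed to 24646 counts in A2 and 16579 in C2, against a median of 5126 over the samples other than A4, and the 6 alveolar type 1 markers summed to 192814 in A2, the lowest of all samples. B3 came next in the neutrophil sum, with 14257. The alveolar type 1 sums of the samples numbered 2 were 192814 to 264341, against 262855 or more under the other numbers. The part of these cells in the Krt8 and Krt18 values was not tested. Of the remaining simple keratins, Krt23 had 188 to 494 counts in a sample, and Krt20, a keratin of gut and urothelial lining, 0.00861 to 15.6.

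**Figure D2:**
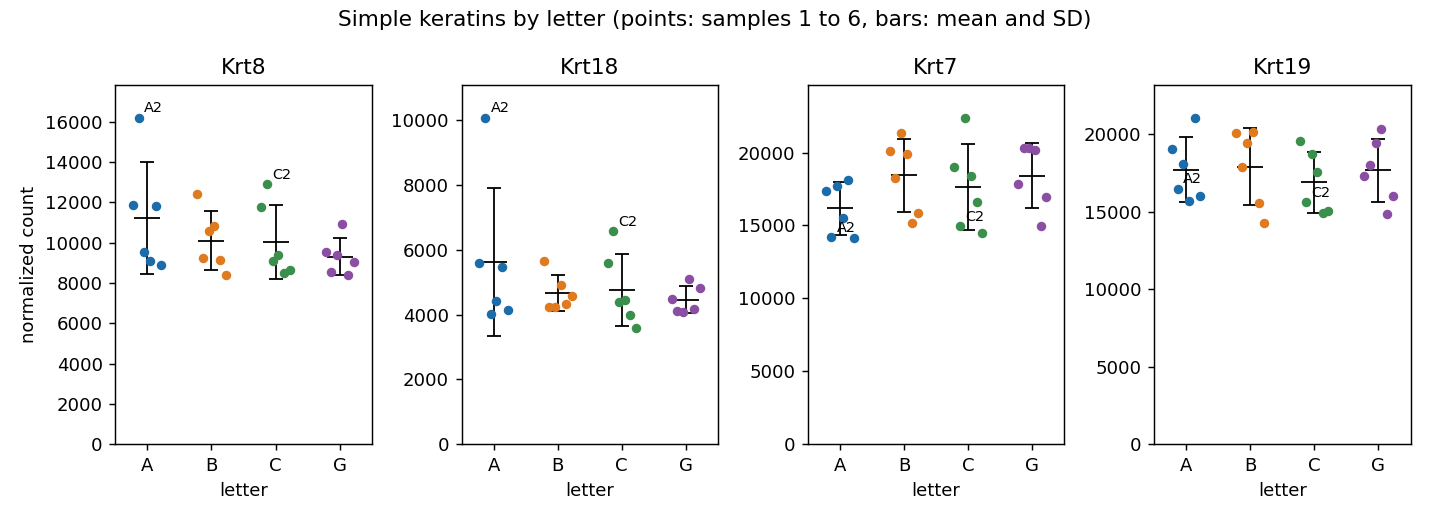
Counts of Krt8, Krt18, Krt7 and Krt19 in each sample by letter, with points for samples and the mean and SD (n = 6) of each letter. A2 is the highest sample for Krt8 (16214) and Krt18 (10089), and the letters overlap in all 4 panels.

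The partners of a filament pair moved together from sample to sample. Over the 23 samples other than A4, on log2(count + 1), Krt8 and Krt18 had a Pearson r of 0.92 and a Spearman rho of 0.76, with two-sided permutation p-values of 1e-05, the smallest the 100000 resamples can give, and 5e-05. Adjusted by Benjamini-Hochberg over the 10 pairs, they were 1e-04 and 0.00035. Krt7 and Krt19 had r of 0.79 and rho of 0.73 (permutation p of 3e-05 and 7e-05, adjusted 0.00015 and 0.00035).

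Without the 2 samples farthest from the median of the type II keratin, r was 0.84 and rho 0.68 for Krt8 and Krt18, and r was 0.81 and rho 0.73 for Krt7 and Krt19. On residuals after letter and number means r was 0.90 and 0.80. Of the cross pairs, Krt8 and Krt19 had r of 0.42 and rho of 0.63 (permutation p of 0.0446 and 0.00175, adjusted 0.0557 and 0.00442), and without the 2 samples farthest from the Krt8 median r was 0.82 and rho 0.85. On residuals r was 0.23 and rho 0.23 for this pair. Differences between the pairs were not tested. For Krt7 and Krt18, r was -0.18 and rho 0.00 (permutation p of 0.424 and 0.998, the same after adjustment), 0.06 without the 2 farthest samples and -0.17 on residuals.

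The ratio of Krt18 to Krt8 was 0.402 to 0.622 over the 23 samples, with a median of 0.469 and A2 as the highest. Samples of a pair come from the same libraries, so shared scaling enters each r. The permutations treated samples as exchangeable, although same-numbered samples deviated together, so permutation p-values are likely too small.

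**Figure D3:**
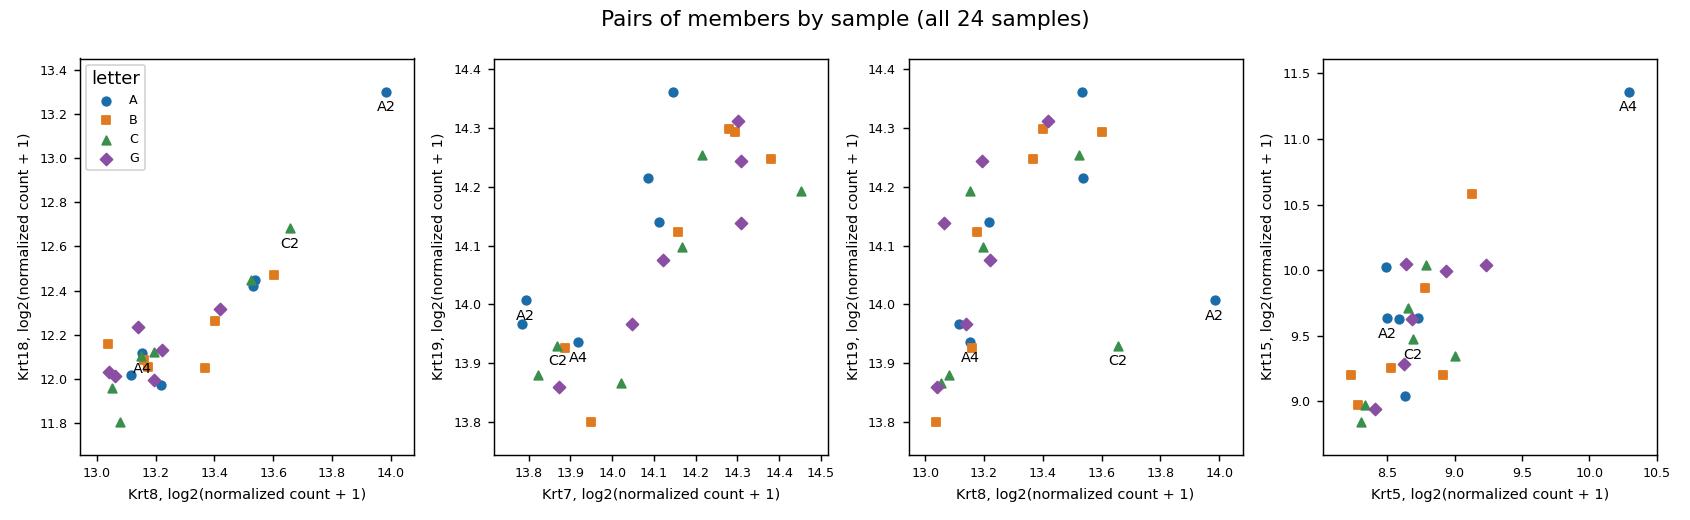
Scatter of Krt8 with Krt18, Krt7 with Krt19, Krt8 with Krt19 and Krt5 with Krt15 in the 24 samples, both axes in log2(count + 1), with colour and shape for the letter. The Krt8 and Krt18 points lie along a line that ends in C2 and A2, whereas A2 lies off the Krt8 and Krt19 trend and A4 lies beyond the others for Krt5 and Krt15.

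Basal cell members were measured in every sample apart from Dsc3, which was at 0 in 2 samples. Of the 7, 0 passed the F test between the letters, which called 0.00652% of all genes. Krt5, the defining type II keratin of basal cells, lay between 359 and 1255 counts in A (median 389.7), between 299 and 558 in B (403), between 316 and 512 in C (408) and between 338 and 600.2 in G (403). Its partner Krt14 lay between 643 and 1427 in A (786), between 616 and 926 in B (772), between 557 and 779 in C (696) and between 636 and 878 in G (725). The letters overlap for both, and the top value of A is that of A4. Without A4, Krt5 in A was 384 ± 26.5 (SD, n = 5).

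Krt15, a keratin of quiescent basal cells, lay between 525 and 2629 counts in A (median 796), between 502 and 1527 in B (598), between 459 and 1049 in C (681) and between 491 and 1055 in G (905). Krt17, a keratin of basal and injured epithelium, lay between 554 and 1449.7 in A (785), between 542 and 941 in B (689), between 471 and 777 in C (678) and between 537 and 788 in G (678). These ranges overlap as well, with A4 the highest sample for Krt15 and for Krt17.

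The transcript of p63, the factor that maintains basal cells, had 11.4 to 61.8 counts in the 23 samples other than A4. Trp63 averaged 54.9 ± 56.5 over letter A (32.8 ± 18.4 without A4, n = 5), 24.2 ± 9.23 over B, 24.3 ± 16.2 over C and 25.4 ± 9.78 over G (SD, n = 6). Dsg3, the desmosomal cadherin of the basal layers, lay between 216 and 687 counts in A (median 322), between 252 and 540.3 in B (393), between 237 and 521 in C (395) and between 276 and 526 in G (316).

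Among basal pairs, Krt5 and Krt14 had r of 0.68 and rho of 0.60 over the 23 samples (permutation p of 0.00038 and 0.00333, adjusted 0.00127 and 0.00666). For Krt5 and Krt15, r was 0.65 and rho 0.63 (permutation p of 0.00072 and 0.00177, adjusted 0.0018 and 0.00442). Both pairs kept an adjusted permutation p under the threshold of 0.05 for r without the 2 farthest samples (r of 0.54 and 0.52) and on residuals (r of 0.50 and 0.67). The residual rho was 0.44 for Krt5 with Krt14, which missed the threshold (adjusted permutation p of 0.06), and 0.64 for Krt5 with Krt15 (0.00423). Residuals were permuted as 23 free values, although letter and number means had been taken out. Their p-values are therefore likely too small, and a residual p near the threshold decides little. Krt5 and Trp63 had r of 0.31 and rho of 0.36 (permutation p of 0.154 and 0.0961, adjusted 0.171 and 0.107), with r of 0.42 without the 2 farthest samples and 0.42 on residuals.

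For Krt14 and Krt15, r was 0.64 and rho 0.56 (permutation p of 0.00091 and 0.00582, adjusted 0.00182 and 0.00831). The remaining basal pair, Krt5 and Krt17, had r of 0.49 and rho of 0.58 (permutation p of 0.0166 and 0.00455, adjusted 0.0276 and 0.00758). Without the 2 samples farthest from the median, Krt14 with Krt15 missed the threshold by r (0.46, adjusted permutation p of 0.0613) and by rho (0.42, 0.0662). The change in r and rho was not tested. Krt5 with Krt17 then missed it by r (0.39, adjusted permutation p of 0.0863) and passed it by rho (0.51, 0.0315). On residuals both missed it: r was 0.42 and rho 0.48 for Krt14 with Krt15 (adjusted permutation p of 0.069 and 0.0507), and 0.34 and 0.42 for Krt5 with Krt17 (0.137 and 0.0632).

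The letters were compared by limma on log2(count + 1) over all 30667 genes, with Benjamini-Hochberg adjustment and a threshold of 0.05. The F test for any difference among the 4 letters called 0 of 60 members, against 0.00652% of all genes (2 genes). At an unadjusted p under 0.05 it held 2 members, against 3.91% of all genes. For B and C, each set against A, and for C set against B, it was 0 members and 0% of all genes. G against A called 0 members and 0.00652% of genes, G against B 0 and 0.00326%, and G against C 0 and 0.00652%. Blocking on the sample number left 0 members called in all 7 tests, while the F test then called 0.0391% of all genes (12), G against A 1.27% (391), G against B 0.00652% (2) and G against C 0.0359% (11).

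At an unadjusted p under 0.05, limma held 2 members in B against A (3.58% of all genes), 4 in C against A (2.98%), 1 in C against B (1.82%), 2 in G against A (8.15%), 1 in G against B (3.67%) and 1 in G against C (4.03%). The member with the smallest p of the F test was Krt12, a keratin of the cornea, which averaged 8.71 ± 4.04 counts over letter A, 2.48 ± 2.03 over B, 5.96 ± 2.04 over C and 8.96 ± 5.30 over G (SD, n = 6). Its limma log2 difference of B from A was -1.71 (SE 0.46, unadjusted p of 0.00112, adjusted p of 0.99999). Its values are close to the floor of the table, at 5.14 to 16.5 in A and 0 to 4.90 in B. Krt12 was picked by its p, and the share of all genes whose A and B ranges stay apart was not counted. For Krt33b, a hair keratin, the F test gave an unadjusted p of 0.0283 in limma and an adjusted p of 0.99995, with means of 1.0007 in C and 4.02 in G.

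The lowest adjusted p in G against A belonged to Krt17, with a limma log2 difference of -0.39 (SE 0.18, adjusted p of 0.593). A4 and A2 hold the highest Krt17 counts of all samples, and the difference was -0.24 (SE 0.17, limma adjusted p of 0.689) without A4 and -0.08 (SE 0.15, 0.967) without both. Krt6a, a keratin of wounded and hyperproliferative epithelium, gave -0.65 (SE 0.30, limma adjusted p of 0.594), with 90.2 to 229 counts in A (median 163) and 55.7 to 155 in G (109). For Krt4 the difference was -1.09 (SE 0.53, limma adjusted p of 0.615). That difference includes A4: the A mean was 1167 ± 2343 (SD, n = 6) and 211 ± 37.7 without A4 (SD, n = 5), against 173 ± 38.2 in G (SD, n = 6). Without A4 the log2 difference was -0.29 (SE 0.13, limma adjusted p of 0.564).

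The median log2 difference over all 60 members was -0.11 in B against A, -0.13 in C against A and -0.08 in G against A, beside -0.01 over all genes in each of them. In C against B it was -0.04, in G against B -0.01 and in G against C 0.05, beside 0.00 over all genes. The 3 contrasts with A share the A samples, A4 included. Without A4, where 58 members remained above the filter, their medians were 0.00 in B against A, -0.05 in C against A and 0.04 in G against A, so the sign of the first and the last turned.

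A4 differed from the other 23 samples in its squamous members. The rule for a member far higher in A4 was a value of at least 10 counts and at least 10 times the highest other sample. It used these readouts, so the values are a description with no test. It held for 5 of 60 members, Krt13, Krt4, Lor, Sprr3 and Sprr1a, and for 0.143% of all genes (44 genes). Their summed count was 15671.5 in A4 and 169.99 to 336 in the other samples.

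Krt13, the type I keratin of wet stratified mucosa, had 6899 counts in A4 and 13.7 to 78.6 in the others (median 35.0), which is 87.8 times the highest of them. Krt4, its type II partner, had 5949 in A4 and 142 to 273 in the others, 21.8 times the highest. The ratio of Krt13 to Krt4 was 1.16 in A4 and 0.0859 to 0.353 elsewhere. A4 was thus the highest sample in the counts of both partners and in their ratio.

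Loricrin, the main protein of the cornified envelope, had 2238 counts in A4 and 0 to 9.51 in the others. Sprr3, an envelope protein of the oesophagus, had 407 in A4 and at most 1.01 elsewhere, and Sprr1a had 178 and at most 1.05. No fold is given for Sprr3 and Sprr1a, since 11 of the 24 samples are at 0 for each. Involucrin, by contrast, had 6.14 in A4 and at most 4.01 elsewhere, and Sprr1b 4.12 and at most 3.905.

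Members just outside the rule were Dsc3, with 46.0 counts in A4 and at most 11.2 elsewhere (4.09 times), Krt78, a keratin of stratified mucosa, with 276 and at most 87.8 (3.15 times), and Trp63, with 165 and at most 61.8 (2.67 times). Basal keratins were also highest in A4 but by less. Krt5 had 1255 counts there and at most 600.2 elsewhere (2.09 times). For Krt15 the values were 2629 and 1527 (1.72 times), for Krt14 1427 and 926 (1.54 times) and for Krt17 1449.7 and 1232 (1.18 times). Of the hyperproliferation keratins, Krt16 had 127 and at most 55.3 (2.29 times), while its partner Krt6a had 127 against 55.7 to 229 elsewhere, inside the range.

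A4 was the highest of all samples in 18 of 60 members, against 7.18% of all genes. These 18 were 6 of 7 basal, 5 of 5 envelope and 3 of 5 mucosal members, 1 each of the wound, epidermal, hair and other members, and 0 of 6 simple keratins. No epidermal keratin met the rule: Krt1 had 112 counts in A4 and at most 97.8 elsewhere, and Krt10 209.8 within a range of 130.2 to 233. On log2(count + 1), A4 minus the median of the other samples had a median of 0.56 over the 5 epidermal members. Over all genes it was 0.02. Dsg3 went the other way. It was the lowest of all samples in A4, with 216 counts against 237 to 687 elsewhere, and 4.26% of all genes were lowest in A4.

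**Figure D4:**
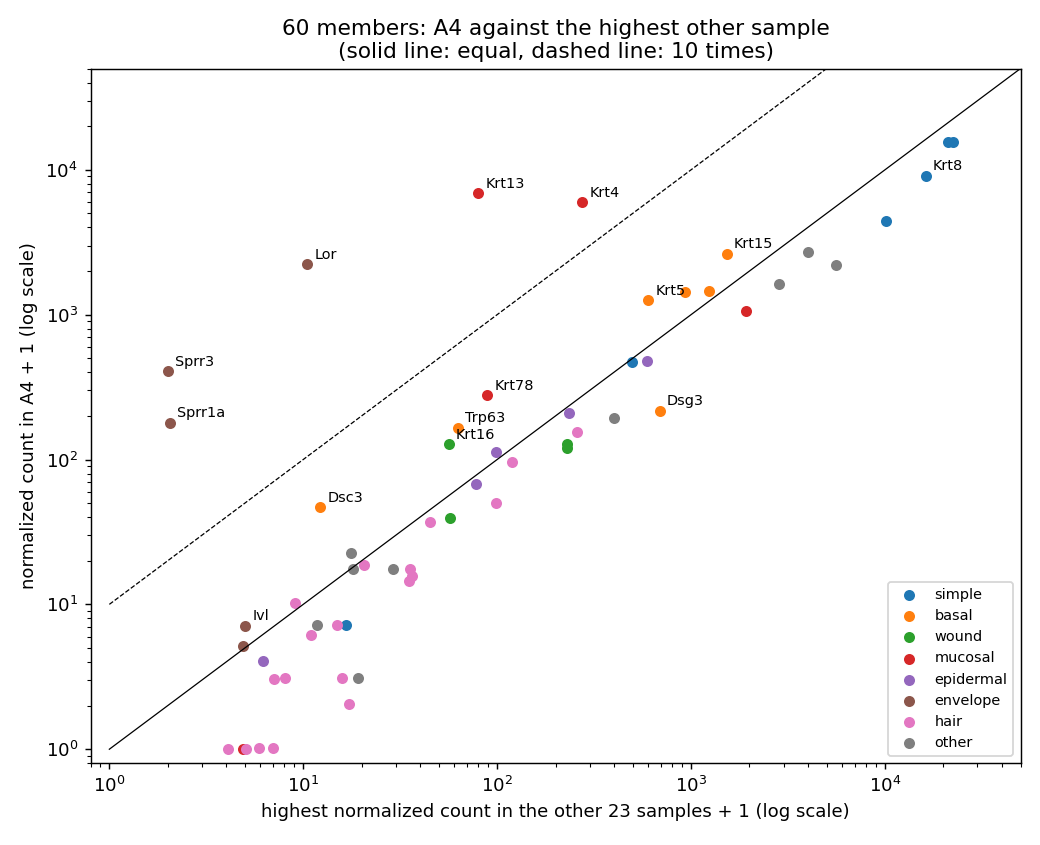
Count of each of the 60 members in A4 on the vertical axis against its highest count in the other 23 samples on the horizontal axis, both on a log scale of count + 1, with colour for the role, a solid line for equal values and a dashed line for 10 times. The members Krt13 (6899 in A4), Krt4 (5949), Lor (2238), Sprr3 (407) and Sprr1a (178) lie above the dashed line, and no simple keratin lies above the solid line.

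Genes outside the members that belong to the same layers were examined as 3 lists. The lists were chosen with earlier results of these data known, so their counts are a description. Over all genes, 7.18% were highest in A4, and 0.143% had at least 10 counts and 10 times the highest other sample there. Of 20 envelope precursors and cross-linking genes in the table, 13 were highest in A4 and 10 were at least 10 times the highest other sample there. Krtdap, a secreted protein of differentiating keratinocytes, had 552 counts in A4 and at most 0.0956 elsewhere, and Lce3a, a late envelope protein, 33.5 and at most 0.0156. Repetin (Rptn) had 234 and at most 2.14, and Tgm3, a transglutaminase that cross-links the envelope, 399 and at most 25.9. Filaggrin 2 (Flg2), of the epidermal granular layer, had 1.06 in A4 and up to 6.01 elsewhere.

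Among 12 desmosomal genes, 6 were highest in A4, against 7.18% of all genes, and 0 reached 10 times. Dsg1c had 63.3 counts in A4 and at most 8.28 elsewhere (7.64 times), and Dsg1a 83.0 and at most 12.8 (6.47 times), whereas desmoplakin (Dsp), which simple epithelia also make, had 14117 against 12171 to 18110.0. Of 8 regulators 4 were highest in A4, against the same 7.18%, and 0 reached 10 times. Pax9, a factor of the foregut and oral epithelium, had 254 in A4 and at most 125 elsewhere (2.03 times), and Grhl3, a factor of the epidermal barrier, 167 and at most 94.9 (1.76 times).

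Of the lists for other cell types, only those for stratified epithelium and skeletal muscle had their highest sum in A4. These lists too were chosen with earlier results of these data known. Over all genes, 7.18% were highest in A4, and 0.143% had at least 10 counts and 10 times the highest other sample there. The list for oesophageal or other stratified epithelium, 13 genes outside the members, summed to 5217 counts in A4 and 1454 to 2882 elsewhere, with 11 of 13 highest in A4 and 6 at least 10 times the next. It shares Krtdap, Sbsn, Dmkn, Cnfn, Crct1 and Tgm3 with the envelope list, and Pitx1 and Pax9 with the regulators. The 10 skeletal muscle markers, such as Acta1, summed to 88096 in A4 and 1703 to 20101 elsewhere, with B4 the next highest, and 8 of 10 were highest in A4. Their part in the result was not tested.

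The 6 thymus markers summed to 102 counts in A4 and 81.4 to 208 elsewhere, the 4 cartilage markers to 158 and 84.5 to 320.04, and the 4 thyroid markers to 623 and 626 to 1003. The 4 club cell markers summed to 650963 and 320740 to 672681. The 6 alveolar type 2 markers summed to 1107150 in A4, the lowest of the 24 samples. The 5 mesothelial, 4 ciliated and 5 neutrophil markers lay inside the range of the other samples. No marker of these lists was at 0 in A4.

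Promoter windows of Lor, Sprr1a and Krt4, which were high in A4, are shown beside that of Krt5, the basal keratin, to set the sequences of these members next to each other. Krt13 and Sprr3, also high in A4, had no window. Krt5 was highest in A4 as well, but by less. Each is the run of 250 bases before the start of the gene in RefSeq's GRCr8 rat assembly, on the minus strand of chromosome 2 or 7, written 5′ to 3′. Capitals mark TATAAA and TGANTCA, the TATA box and the core of the AP-1 site, searched on both strands, where they occur. The windows are chr2:180256573-180256822 for Lor, chr2:180752626-180752875 for Sprr1a, chr7:134930714-134930963 for Krt4 and chr7:134730570-134730819 for Krt5.
Lor: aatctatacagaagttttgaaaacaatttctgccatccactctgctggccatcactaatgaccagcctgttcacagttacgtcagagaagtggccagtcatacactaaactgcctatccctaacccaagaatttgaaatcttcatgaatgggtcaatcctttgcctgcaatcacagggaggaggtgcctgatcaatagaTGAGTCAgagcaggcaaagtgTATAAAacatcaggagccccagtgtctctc
Sprr1a: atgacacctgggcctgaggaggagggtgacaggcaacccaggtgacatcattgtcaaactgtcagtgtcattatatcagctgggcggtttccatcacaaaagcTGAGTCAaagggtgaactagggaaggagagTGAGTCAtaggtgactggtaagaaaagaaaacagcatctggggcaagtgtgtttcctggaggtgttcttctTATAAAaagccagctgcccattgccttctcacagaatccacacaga
Krt4: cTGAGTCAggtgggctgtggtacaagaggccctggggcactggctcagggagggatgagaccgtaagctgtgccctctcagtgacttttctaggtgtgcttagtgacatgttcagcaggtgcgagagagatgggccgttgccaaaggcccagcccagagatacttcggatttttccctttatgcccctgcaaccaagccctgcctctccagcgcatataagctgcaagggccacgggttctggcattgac
Krt5: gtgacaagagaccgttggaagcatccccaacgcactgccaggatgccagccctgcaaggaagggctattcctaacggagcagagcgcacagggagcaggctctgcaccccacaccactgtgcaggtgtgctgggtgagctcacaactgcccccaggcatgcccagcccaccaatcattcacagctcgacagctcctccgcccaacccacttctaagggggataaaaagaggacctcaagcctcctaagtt

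In the Lor window TATAAA starts 30 bases before the gene start and TGANTCA 51 bases before it. The Sprr1a window holds TATAAA at 46 bases and TGANTCA at 147 and 117 bases, the Krt4 window TGANTCA at 249 bases, and the Krt5 window neither. Over all 33469 windows of this length in the table of promoters, 12.9% hold TATAAA and 6.34% hold TGANTCA. Of the 41 members with a window, 22 hold TATAAA and 4 hold TGANTCA in at least 1 of their windows. Lor, Sprr1a and Krt4 are among those 4, so the windows shown are not typical of the members. A match describes letters and is not a binding site.

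More members passed the test of the sample number, which the labels leave undefined, than that of the letter. The limma F test of the 6 numbers, with the letter as a term, called 13 of 60 members (21.7%), against 31.5% of all genes. Among genes with a mean of at least 10 counts it called 11 of 38 members (28.9%), against 46.7% of all such genes. The share among the members was below the background by both counts. By role it called 5 of 7 basal members, 2 of 6 simple, 3 of 9 other, and 1 each of 5 mucosal, 5 epidermal and 19 hair members. No wound keratin (0 of 4) and no envelope member (0 of 5) passed.

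Krt79, a keratin of sebaceous ducts and hair follicle openings, gave the smallest p, with a limma adjusted p of 3.1e-06. In the samples numbered 3 the counts were 5139.6 (A3), 5209.7 (B3), 5574 (C3) and 4731 (G3), with a mean of 5163 ± 346 (SD, n = 4). The other 20 samples lay between 1156 and 3584, so number 3 did not overlap them and its mean was 2.42 times theirs. All 4 samples of number 3 stood above the others in 0.359% of all genes. In the gene order of RefSeq's GRCr8 rat assembly Krt79 lies between Krt4 and Krt78, and neither of them was called in this test (limma adjusted p of 0.245 and 0.234).

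Krt76, a keratin of the hard palate and other oral mucosa, was set apart in number 1 (limma adjusted p of 0.000226). It had 1784 counts in A1, 1927 in B1, 1659 in C1 and 1789.8 in G1, a mean of 1790.05 ± 109.8 (SD, n = 4), against 751 to 1399 in the other 20 samples. These groups do not overlap, which held for number 1 upward in 1.35% of all genes. Krt20 was the remaining member with a number wholly above the rest: number 1 had 15.6, 13.8, 8.05 and 8.04 counts and the others at most 7.86 (limma adjusted p of 0.0442).

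Dsg3 differed between numbers without a number standing wholly apart (limma adjusted p of 0.00113). Its counts in A, B, C and G were 687, 520.1, 521 and 354 in number 2 and 496, 540.3, 495 and 526 in number 3. In number 5 they were 247, 252, 309 and 276. Numbers 2 and 3 were thus above number 5 in every sample. The share of all genes with such a gap between chosen numbers was not counted, here or for the members below. The limma number test called 31.5% of all genes.

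Krt80, a keratin of differentiating epithelium, had 2303, 4015, 3393 and 3429 counts in A, B, C and G of number 3 and 2058, 2025, 2371 and 1942 in number 5 (limma adjusted p of 0.00295). Krt7, the simple keratin, had 17714, 21333, 22399 and 20291 in number 3 and 14113, 15832, 14492 and 16928 in number 6 (0.0155 by the same limma test). Number 3 was above number 6 in every sample for Krt7, whereas the A sample of number 3 was below the C sample of number 5 for Krt80. Krt88, whose counts reach only 10.7, had 6.01, 5.91, 5.08 and 2.9975 in number 3 and 1.05, 0.00151, 0 and 0 in number 6 (limma adjusted p of 0.0112).

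**Figure D5:**
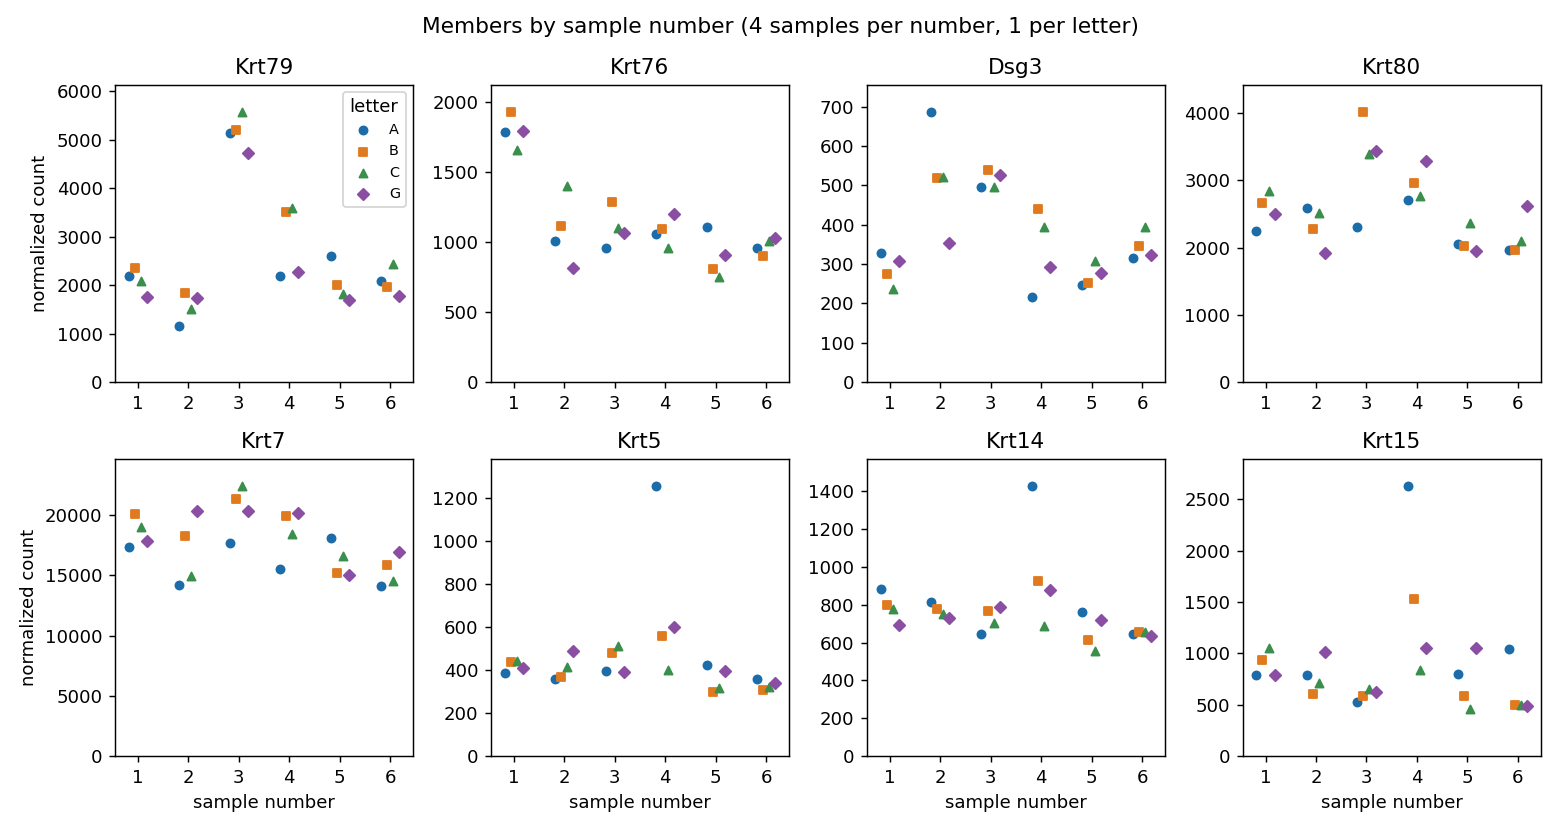
Counts of Krt79, Krt76, Dsg3, Krt80, Krt7, Krt5, Krt14 and Krt15 in each sample by sample number, with colour and shape for the letter. Number 3 lies above all others for Krt79 (4731 to 5574) and number 1 for Krt76 (1659 to 1927), and A4 lifts number 4 for Krt5, Krt14 and Krt15.

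The basal keratins called for number had their highest mean in number 4. Krt5 had 1255, 558, 402 and 600.2 counts in A, B, C and G of number 4 and 359, 309.7, 321 and 338 in number 6 (limma adjusted p of 0.0182). Krt14 had 1427, 926, 688 and 878 in number 4 and 643, 657, 655 and 636 in number 6 (0.0225 by the same limma test). Number 4 was above number 6 in every sample for both genes, and A4 was the top value of each. As for Dsg3, the share of all genes with such a gap was not counted.

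Krt15 had 2629, 1527, 835 and 1051 counts in number 4 and 1041, 502, 500.06 and 491 in number 6 (limma adjusted p of 0.0118). For Krt17 the values were 1449.7, 941, 666 and 788 in number 4 and 715, 542, 471 and 537 in number 6 (0.0337 by the same limma test). A6 lay above C4 for both genes, so these numbers overlap.

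Without A4 the limma adjusted p was 0.0274 for Krt5 and 0.0436 for Krt14, and it was 0.0523 for Krt15 and 0.0889 for Krt17, which then missed the threshold. Without B4 it was 0.0375 for Krt5, and Krt14 (0.0502) and Krt15 (0.0526) missed the threshold, as did Krt17. Krt17 was called in 18 of the 24 fits that left out a sample, and also missed the threshold without A6, B6, C6 or G6. B4 had the next highest skeletal muscle sum (20101) after A4, and the part of that tissue was not tested. The remaining called members were Krt73, a keratin of the hair follicle's inner root sheath (limma adjusted p of 0.0287), and Krt10 (0.0365).

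Krt73 had 60.8, 78.5, 97.7 and 58.3 counts in number 1 and 29.8 to 60.8 in the other 20 samples. Krt10, the epidermal type I keratin, had 186, 205, 233 and 194 in number 1 and 136, 153, 130.2 and 157 in number 2. Number 1 was above number 2 in every sample for Krt10. Of the 13 members, 7 were called in all 24 fits that left out a sample (Krt79, Krt76, Dsg3, Krt80, Krt88, Krt7 and Krt5), and 6 were lost in at least 1. Without A1, B1 or C1 Krt73 was lost, its limma adjusted p reaching 0.137. Krt10 was lost in 11 of these fits (up to 0.101) and Krt20 in 17 (up to 0.162).

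Of the other genes of the pathway, the number F test in limma called 5 of 12 desmosomal genes, 4 of 20 envelope genes and 7 of 8 regulators, beside 31.5% of all genes. Periplakin (Ppl), which links the envelope to keratin filaments, had the smallest adjusted p of these lists (2.92e-05), and plakophilin 1 (Pkp1), a desmosomal plaque protein of stratified epithelium, had 0.000176 in the same limma test. Among the regulators, Sox2, a factor of airway basal cells, had 0.000536 and Ovol1, of the differentiating epidermis, 0.000454. Between the letters, limma called 0 of these 40 genes in each of the 7 tests, and at most 0.00652% of all genes. Blocking on the number, G against A called suprabasin (Sbsn), with a limma adjusted p of 0.0217, beside 1.27% of all genes. Its log2 difference was -0.88 (SE 0.19, limma adjusted p of 0.189 without the block). B and C were below A for Sbsn as well, with log2 differences of -0.48 and -0.60. The difference without A4 was not examined for Sbsn, so the part of A4 in this call was not tested.

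Krt4 and Krt13 were tested as a pair without A4. Over the 23 samples r was 0.47 and rho 0.54 (permutation p of 0.0236 and 0.00857, adjusted 0.0337 and 0.0107). Without the 2 samples farthest from the Krt4 median the sizes hardly moved, with r of 0.45 (adjusted permutation p of 0.0613) and rho of 0.54 (0.0294), so r missed the threshold and rho passed it. On residuals r was 0.62 (adjusted permutation p of 0.00555) and rho 0.41 (0.0687), which missed it. The limit given for the residual p-values of the basal pairs holds here too. G4 had the highest Krt13 count of the 23 samples, 78.6, and its Krt4 count was 248, the top of letter G.

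The hair and inner root sheath keratins formed the largest role group. Of 19 such rows, Krt71, a keratin of the inner root sheath, was the only one with a mean above 100 counts, at 142 to 257 in a sample. Krt86, a hair cortex keratin, had 59.6 to 119, and the other 17 had means between 1.25 and 47.4. Their letter comparisons called 0 of 19, and the letter F test called 0.00652% of all genes. The number test called only Krt73 of these rows, against 31.5% of all genes. Krt75, a follicle keratin placed in the wound group, had 68.7 to 228 counts with A2 highest, and Krt2, an epidermal keratin, 177 to 589.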

How the data were processed

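mRNA of 24 rat lung samples was sequenced on an Illumina platform, per the labels' protocols. The authors deposited 1 table of normalized counts per gene (a signal: low values lie near whole numbers, but no constant step recovers reads), and the submitters' processing notes name STAR and GRCm38 without a role. Sequencing depth is unknown, so counting intervals are not given. The table was analysed as deposited: limma 3.58.1 (R 4.3.3), with a trended variance, on log2(value + 1), for rows averaging 0.5 or more, which were all 30667. The model held 4 letter means over 24 samples; the number test added the number with the letter as a term. P-values are two-sided, adjusted by Benjamini-Hochberg over all genes, threshold 0.05. Fold changes on this scale understate those of low genes. The design had allowed for raw counts, for which the table was not suited. Correlations used 100000 permutations (Python 3.11.15, scipy 1.17.1). The limma steps were tested on simulated data.

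The members, the lists (roles, cell types, pathway) and the 10 pairs were chosen with earlier results of these data known. Any member may be named, with full values for preset key members, members past a threshold and the 3 smallest p-values of both F tests, and for list genes those past a threshold and the 2 highest in A4 relative to the next sample; Rptn, Tgm3, Flg2, Dsp and Grhl3 were named after their values were seen. Same-numbered samples deviated together, with correlations over 21922 genes of 0.169 to 0.59 in B against A and 0.127 to 0.596 in C against B, all 6 pairs over 0.1 in both. In the other 4 contrasts 4 or 5 of 6 pairs exceeded 0.1. The pairing comes from the data, since no label states it. Alternatives were another pseudocount, other filters, quantile normalization, the number as a block and leaving out each sample, and, chosen after seeing the data, leaving out A2 and A4 together and the differences from A without A4.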

Additional observations from a re-analysis of the deposited data

Results flagged for a closer look

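Of 194 groups examined, 116 by letter and 78 by number, 35 held a sample whose gap to its nearest neighbour exceeded Dixon's 95% critical value. Chance gives about 1 in 20 for groups chosen without regard to their values. These groups were not so chosen. The 29 members by letter were key members, members called for number and those with the smallest p, and the 13 by number were those called for number. The count of 35 is therefore a description and no test. In 5 of the 35 the sample is A4 and the member is among those far higher in A4 by the rule: Krt13 (6899 counts), Krt4 (5949), Lor (2238), Sprr3 (407) and Sprr1a (178). These values chose those members, so they are a description and no test. Members were chosen with A4 known to stand apart. Within letter A, A4 was also far above the other 5 samples for Krt15 (2629 counts), Krt14 (1427), Krt5 (1255), Trp63 (165), Krt16 (127), Dsc3 (46.0) and Krt12 (16.5), and within number 4 for Krt10 (209.8).

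Other samples far above the rest of their letter were A2 for Krt18 (10089 counts), A3 and G3 for Krt79 (5139.6 and 4731), A1 for Krt76 (1784) and Krt20 (15.6), and B1 for Krt73 (78.5) and Krt16 (30.4). The same held for C1 with Krt10 (233), G3 with Dsg3 (526), G4 with Krt4 (248) and Krt13 (78.6), and B3 with Krt13 (63.7). At values near the floor of the table it held for B2 and C6 with Dsc3 (6.96 and 5.77), B4 and C3 with Sprr1a (0.0480 and 1.05), and B4 and G4 with Sprr3 (0.0721 and 1.01).

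Within the number groups, A6 was far above the other samples numbered 6 for Krt15 (1041 counts) and Krt88 (1.05), as was G6 for Krt20 (5.83), and G1 was far below the other samples numbered 1 for Krt17 (664).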

How the results depend on the processing

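The letter comparisons called 0 members under every setting tried: pseudocount 0.1, a mean of at least 10, no filter, quantile normalization, the replicate block, each sample left out and, chosen after seeing the data, A2 and A4 left out together. With the replicate block the lowest adjusted p of a member in limma was 0.176 (G against A). Over all genes the block raised the calls from 2 to 12 (F test of the letters), from 2 to 391 (G against A), from 1 to 2 (G against B) and from 2 to 11 (G against C). Leaving out a sample gave 1 to 2 genes in the letter F test, 1 to 4 in G against A, 1 to 2 in G against B and 1 to 2 in G against C; quantile normalization gave 1 in the letter F test. Leaving out A2 and A4 gave 1 in the letter F test and 1 in G against A. The number test called 13 members, 12 with pseudocount 0.1 (Krt20 then had a limma adjusted p of 0.148), 11 with a mean of at least 10, 14 with quantile normalization, 10 to 16 with a sample left out and 11 without A2 and A4, where Krt14 (0.06), Krt15, Krt17, Krt10 and Krt20 missed the threshold and Krt16 (0.0189), Krt19 (0.0188) and Krt6b (0.029) passed it. The 5 members far higher in A4 by the rule stayed 5 with quantile normalization, a limit of 5 or 20 times and a minimum of 50. The lowest fold among them was 21.8 (Krt4), the next member had 4.09 (Dsc3), and their lowest A4 value was 178 (Sprr1a). Those limits and that minimum therefore could not change the count. With all 24 samples r was 0.43 for Krt8 with Krt19 and 0.66 for Krt5 with Trp63, and both then passed. A4, left out of the main correlations, is the highest sample for Krt5 (1255 counts) and for Trp63 (165). Without A4 r was 0.31 for Krt5 with Trp63. The unknown depth and values near the floor limit what can be said of the 22 members with a mean under 10.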
